A study of Mus musculus with 12 samples.

Results

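H3K36me3, trimethylation of lysine 36 of histone H3, was measured over whole gene bodies in a pair of chromatin immunoprecipitation sequencing (ChIP-seq) libraries, 1 from C2C12 myoblasts and 1 from C2C12 myotubes. These were 2 of the 12 libraries of the series, which profiled 6 histone marks in each of the cell states. The genes described were the protein-coding genes of the mm9 annotation on chromosomes 1 to 19 and X that are 3 kb or longer, 18156 of 22350. A gene's level was its reads per kb of gene body, from the first to the last annotated base with introns, scaled by the library's total reads (RPKM). Genes were compared where the reads of the pair summed to 50 or more, which left 13663 genes, while 4493 had fewer reads and 485 of these had none in either library. A gene was called higher in myotubes at a ratio of 2 or more and lower at a ratio of 0.5 or less, with 1 read added to each library in proportion to its depth.

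C2C12 is an immortalised mouse myoblast line, here labelled with the strain C3H. The myoblasts were dividing cells close to confluence in medium with 10% serum. The myotubes were the multinucleated cells that formed over about 5 days once serum had been withdrawn, lifted away from unfused cells by a mild trypsin digestion. Both were the unmodified line between passages 15 and 18, and no gene was silenced in them. The study set the histone marks of myoblasts beside the binding sites of the transcription factor ZBED6. There were no replicates, so a ratio here compares 2 libraries of 1 cell line and carries no p-value. The intervals given are exact conditional binomial 95% intervals, which cover counting error only, and the libraries were amplified by PCR without molecular identifiers.

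H3K36me3 is laid down on nucleosomes inside genes by the methyltransferase Setd2, which travels with elongating RNA polymerase II. The mark therefore covers the bodies of transcribed genes rather than their promoters and usually grows denser toward the 3′ end. When myoblasts leave the cell cycle and fuse, genes of the contractile apparatus are switched on and genes of cell division are switched off.

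The myoblast library held 7026942 reads on these chromosomes and the myotube library 4309078, within a range of 1858771 to 7033100 deposited reads over the 12 libraries. Gene bodies of 3 kb or longer span 38.7% of the genome and took 75.4% of the myoblast reads and 78.2% of the myotube reads. In 10 kb windows that touched no gene and no deposited H3K36me3 peak, the level was 0.122 RPKM in myoblasts and 0.101 RPKM in myotubes. The level for reads spread evenly over the genome was 0.391 RPKM, called the genome mean below. A gene was termed marked at 2 or more times the genome mean and unmarked below 1 time. By this measure 8628 genes were marked in myoblasts and 8565 in myotubes, and 7781 were marked in both.

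The libraries differed in their dependence on base composition. In windows outside genes and peaks, the log2 ratio of the pooled myotube reads to the pooled myoblast reads was −0.73 at 30% to 32% GC (104 windows), −0.86 at 32% to 34% GC and then climbed to 0.49 at 52% to 54% GC. Gene bodies showed the same upward course. Over the 13663 genes, Spearman's rho between GC content and log2 ratio was 0.562, and after each ratio was divided by the curve of these windows it was −0.045. In the 5 equal groups of genes by GC content, the median log2 ratio was −0.51 in the lowest, from 33.2% GC upward, and 0.46 in the highest, from 50.8% GC upward. Ratios adjusted by the curve of the windows are therefore given beside the ratios as measured for most gene lists and for some single genes. A ratio given alone is as measured. This adjustment was chosen after the data were seen, and the part of GC content in the single results was not tested otherwise.

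**Figure D1:**
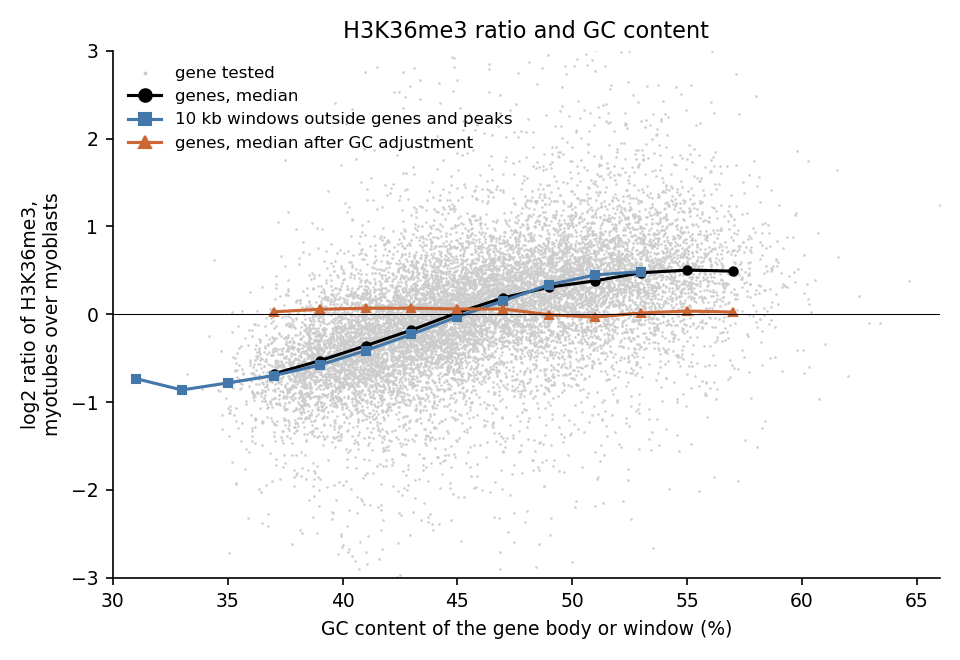
Log2 ratio of myotubes to myoblasts (y axis) against the GC content of the gene body in percent (x axis) for the 13663 genes compared, as grey points, with 50 genes outside the drawn range. Lines give, in bins of GC content, the medians of genes as measured and after adjustment and the ratio of pooled reads in 10 kb windows outside genes and peaks. The measured gene medians climb from left to right, as the windows do above 34% GC, and the adjusted medians stay near 0.

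Of the 13663 genes, 923 were higher in myotubes (6.76%) and 839 were lower (6.14%), together 12.9%. The interval of every called gene lay on its own side of 1. The minimum of reads and the 2-fold rule leave little room for another outcome, so this is no test of the calls. The median log2 ratio over all genes was 0.02, with the 5th percentile at −1.08 and the 95th at 1.14. Higher genes made up 52.4% of the calls when libraries were scaled by total reads. They made up 78.3%, with 1691 higher and 469 lower genes, when scaled by the windows outside genes and peaks, a scaling that moved the median log2 ratio from 0.02 to 0.28. After adjustment for GC content 647 genes were higher (4.74%), 518 of them shared with the 923, and 628 were lower (4.6%), 453 of them shared with the 839. In these bulk libraries, fewer cells that carry the mark and less mark in each cell cannot be told apart.

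The higher genes started from low levels, with a median of 0.526 RPKM in myoblasts and 1.66 RPKM in myotubes. The lower genes went from a median of 1.61 RPKM to 0.557 RPKM, against 1.25 and 1.18 RPKM for all genes compared. Of the 923 higher genes, 315 were already marked in myoblasts and 733 were marked in myotubes. Of the 839 lower genes, 649 were marked in myoblasts and 278 still were in myotubes. The median GC content was 50.7% for higher genes, 41.7% for lower genes and 45.5% for all genes.

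**Figure D2:**
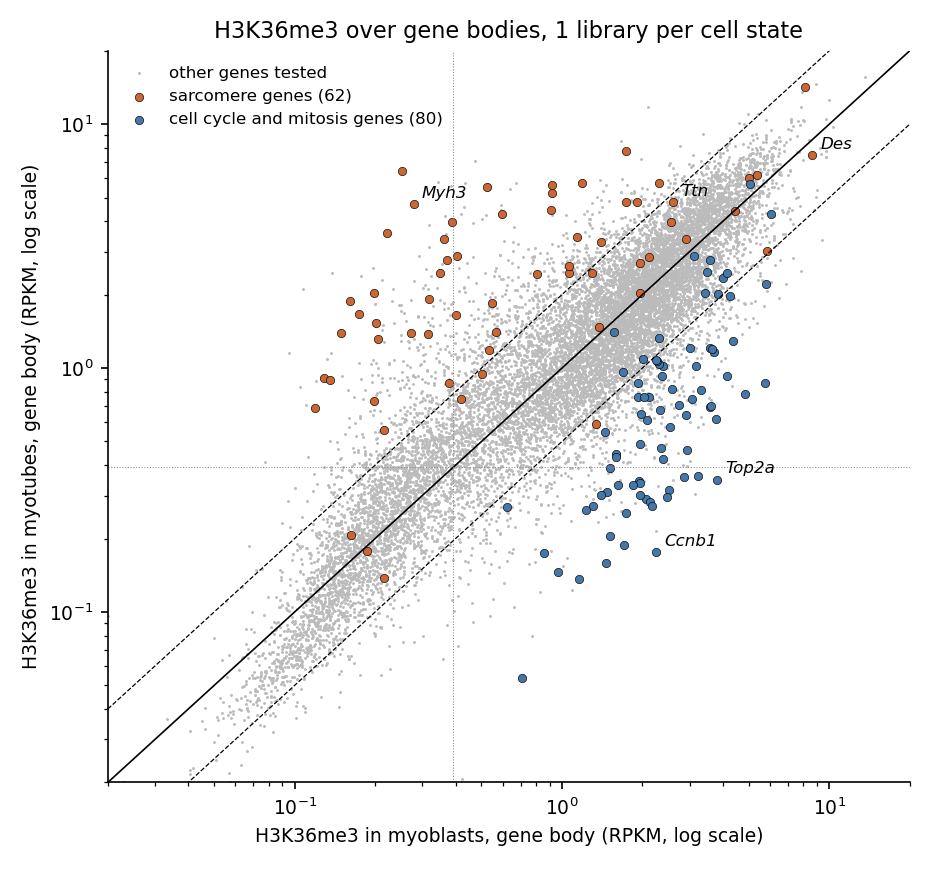
H3K36me3 level of each gene in myoblasts (x axis) and myotubes (y axis), both in RPKM on log axes, with the 62 sarcomere genes and the 80 cell cycle genes described further on in colour. Dashed lines mark 2-fold, dotted lines the genome mean, and 4 genes are drawn at the lower edge. Most genes lie along the diagonal, sarcomere genes mainly above it and cell cycle genes below it.

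The labels of the cells were held against marker genes. Of 12 markers of myotubes, all were compared, 9 were higher and 0 lower, and the number marked went from 5 in myoblasts to 12 in myotubes, with a level over their pooled bodies of 1.35 and then 4.15 RPKM. The 3 not called were Chrna1, the muscle acetylcholine receptor subunit, at a ratio of 0.928, Ttn at 1.85 and Atp2a1 at 1.99. After adjustment for GC content these were at 0.954, 2.39 and 1.46. Of 9 markers of dividing myoblasts, 8 were lower, the number marked went from 9 to 3, and the level over their pooled bodies from 2.48 to 0.546 RPKM. Of 43 genes of liver and neurons, kept as a background, 32 had enough reads, 0 were higher and 2 were lower (6.25%). The shares of all genes were 6.76% and 6.14%. Scaled by windows outside genes and peaks, 2 of the 32 were higher and 0 lower. The level over their pooled bodies was 0.118 RPKM in myoblasts and 0.105 RPKM in myotubes, near that of the windows outside genes, 1 was marked in myoblasts and 0 were in myotubes.

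The 15 genes with the highest lower bound of the ratio held many genes of the muscle fibre, and 13 of them are described. Scn4a, the voltage-gated sodium channel of skeletal muscle (chr11:106179906-106214602), had 84 reads in myoblasts and 866 in myotubes. Its level went from 0.345 to 5.79 RPKM, a ratio of 16.6 (interval 13.4 to 21.3) and 12.3 after adjustment for GC content. Myh3, the embryonic myosin heavy chain (chr11:66891802-66915793), had 47 and 485 reads, levels of 0.279 and 4.69 RPKM and a ratio of 16.4 (12.5 to 23.2). Both genes were below the genome mean in myoblasts and above 10 times that mean in myotubes.

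Further down the same end stood Unc45b, a chaperone that folds myosin, with 51 and 508 reads and a ratio of 15.9, and Cacna1s, the voltage sensor of the muscle calcium channel, with 205 and 1655 reads and a ratio of 13.1. Cav3, the muscle caveolin, had only 13 and 141 reads, and its ratio of 16.2 had a wide interval, from 10.0 to 34.0. Dysf, which encodes the membrane repair protein dysferlin, had 610 and 4008 reads and a narrow one, 10.7 (9.84 to 11.7). Actn2, the alpha-actinin of the Z disc, had 99 and 627 reads and a ratio of 10.2, and Myom3, a myomesin of the M band, 205 and 1331 reads and a ratio of 10.5.

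The other members of this end are less bound to muscle. Fgfr3, a receptor for fibroblast growth factors, reached 7.03 RPKM in myotubes, the highest level among these genes, at a ratio of 14.5. Cd300a, an inhibitory receptor known from immune cells, had 11 and 133 reads and a ratio of 17.8 (10.7 to 40.5). Adamtsl2, a secreted matrix glycoprotein, Slc2a6, a member of the glucose transporter family, and Ccdc88c, a Dishevelled-binding protein, had ratios of 11.4, 13.5 and 9.60. These 13 genes kept a ratio of at least 7.21 after adjustment. None of their bodies touched a peak that the authors called in the myoblast library, and between 17.6% and 76.3% of each body lay in their myotube peaks, which were called from the same reads.

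At the other end stood genes of mitosis, and 12 of the 15 belonged to the list of cell cycle genes described below. When the bounds were adjusted for GC content before ranking, 7 of these 15 genes stayed among the 15. At the higher end 11 of the 15 did. Top2a, the topoisomerase that untangles replicated DNA (chr11:98854257-98885503), had 836 reads in myoblasts and 47 in myotubes. Its level went from 3.81 to 0.349 RPKM, a ratio of 0.0930 (0.0668 to 0.123) and 0.123 after adjustment. Cenpf, a kinetochore protein (chr1:191464478-191511965), had 1076 and 74 reads and a ratio of 0.113. Ccnb1, the cyclin that drives entry into mitosis, had 125 and 6 reads, so its ratio of 0.0873 had an interval of 0.0282 to 0.175. Mki67, the proliferation antigen Ki-67, had 461 and 34 reads and a ratio of 0.123 (0.0823 to 0.171).

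The kinetochore gene Casc5 (601 and 40 reads) and the checkpoint kinase gene Bub1 (368 and 25 reads) had ratios of 0.110 and 0.114. Cep55, needed for the final cut between daughter cells, had 306 and 18 reads and a ratio of 0.0996. The spindle genes Tpx2, Kif11, Kif15, Ckap2l and Hmmr and the cytokinesis gene Anln lay between 0.126 and 0.157. Igfbp2, which binds insulin-like growth factors and is no gene of division, went from 511 to 42 reads, a ratio of 0.136, and from 2.60 to 0.349 RPKM. 2610203C20Rik had 271 and 19 reads and a ratio of 0.118. None of these 15 bodies touched a myotube peak, whereas 10.95% to 57.3% of each lay in myoblast peaks.

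**Figure D3:**
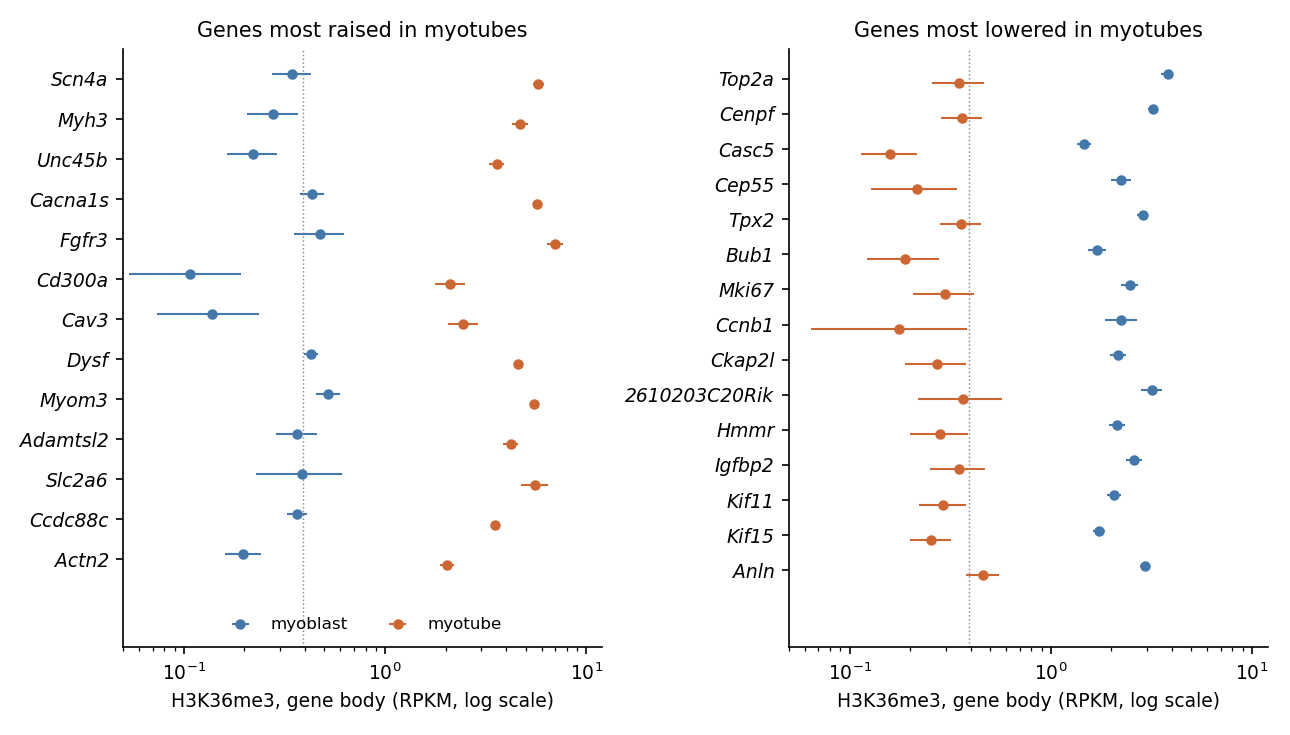
H3K36me3 level in RPKM on a log axis (x axis) in myoblasts and myotubes for 13 of the 15 genes with the highest lower bound and the 15 with the lowest upper bound of the ratio (y axis, by symbol). Points are 1 library each, bars exact 95% Poisson intervals of the count, and the dotted line is the genome mean. In the first group the myotube points lie from 2.04 to 7.03 RPKM and the myoblast points from 0.107 to 0.522 RPKM, and in the second group the order is turned round.

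Promoter sequence of these genes is shown for those with a match to a short motif and no annotated exon in the 200 bases upstream of the start. CAGCTG and CACCTG are forms of the E box bound by helix-loop-helix factors such as MyoD, and TTTGAA is the core of an element known from promoters of late cell cycle genes. Most genes of the higher end had no match to these E boxes, and most of the lower end none to TTTGAA. Letters were searched on both strands, and matches of these motifs cannot share a base. The matches, in capitals, were found in the mm9 genome, and each sequence reads 5′ to 3′ on the strand of the gene. The first 3 belong to higher genes: Cav3 (chr6:112409295-112409494, plus strand), Adamtsl2 (chr2:26934699-26934898, plus strand) and Myom3 (chr4:135315430-135315629, plus strand). The others belong to lower genes: Top2a (chr11:98885504-98885703, minus strand), Mki67 (chr7:142908063-142908262, minus strand), Kif11 (chr19:37450693-37450892, plus strand) and Cep55 (chr19:38129315-38129514, plus strand).
Cav3: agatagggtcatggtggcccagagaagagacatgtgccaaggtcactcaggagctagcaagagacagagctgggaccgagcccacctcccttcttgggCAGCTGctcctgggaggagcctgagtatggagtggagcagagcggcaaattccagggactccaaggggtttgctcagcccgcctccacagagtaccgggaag
Adamtsl2: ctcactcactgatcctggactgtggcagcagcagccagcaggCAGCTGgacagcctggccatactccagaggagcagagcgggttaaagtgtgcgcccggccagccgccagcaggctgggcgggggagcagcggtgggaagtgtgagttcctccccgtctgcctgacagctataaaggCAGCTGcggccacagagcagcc
Myom3: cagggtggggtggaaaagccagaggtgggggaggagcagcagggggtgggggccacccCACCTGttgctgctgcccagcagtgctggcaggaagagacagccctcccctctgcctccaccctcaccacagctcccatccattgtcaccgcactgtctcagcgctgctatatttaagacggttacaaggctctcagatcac
Top2a: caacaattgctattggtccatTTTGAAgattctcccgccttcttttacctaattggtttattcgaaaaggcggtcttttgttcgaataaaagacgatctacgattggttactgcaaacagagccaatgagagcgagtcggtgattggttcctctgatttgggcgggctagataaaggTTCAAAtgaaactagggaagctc
Mki67: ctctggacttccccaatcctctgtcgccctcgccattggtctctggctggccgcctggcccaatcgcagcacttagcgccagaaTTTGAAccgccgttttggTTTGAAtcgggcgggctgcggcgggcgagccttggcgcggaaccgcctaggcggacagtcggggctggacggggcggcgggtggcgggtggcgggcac
Kif11: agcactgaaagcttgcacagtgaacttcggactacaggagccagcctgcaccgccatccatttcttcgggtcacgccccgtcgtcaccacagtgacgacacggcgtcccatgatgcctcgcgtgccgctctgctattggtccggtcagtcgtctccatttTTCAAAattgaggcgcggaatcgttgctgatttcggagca
Cep55: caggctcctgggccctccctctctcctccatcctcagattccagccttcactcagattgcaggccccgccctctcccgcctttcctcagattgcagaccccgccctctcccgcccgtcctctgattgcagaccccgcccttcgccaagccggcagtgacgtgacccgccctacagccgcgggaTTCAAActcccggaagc

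These letters were then counted upstream of every start, taking for each gene the start with most H3K4me3 reads. CACCTG was present at 18.1% of 922 higher genes, 8.94% of 839 lower genes and 12.5% of all 13656 genes with a start, but also at 16.1% of the 2644 genes unmarked in both libraries. CAGCTG was present at 14.2%, 8.94% and 10.3% of the higher, lower and all genes, and at 11.8% of the unmarked genes. TTTGAA was present at 6.18%, 13.3% and 7.38%, at 10.9% of the unmarked genes and at 22.6% of the 115 genes that lost the mark. The shares were not matched for base composition, and a match is no evidence of binding.

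Genes of the sarcomere, the contractile unit of the muscle fibre, were mostly higher in myotubes. Of 68 listed genes 62 were compared, 42 were higher (67.7%) and 1 was lower (1.61%). Over all genes compared 6.76% were higher and 6.14% lower, and after adjustment 4.74% and 4.6%. After adjustment 40 of the sarcomere genes were higher (64.5%) and 0 lower. Their median ratio was 3.00, or 2.90 after adjustment, against 1.01 and 1.03 for all genes. The median level went from 0.541 to 2.54 RPKM, and 28 were marked in myoblasts against 54 in myotubes. Among the highest ratios were those of Myh3, Unc45b and Myh7, the slow myosin heavy chain, which had 27 and 194 reads and a ratio of 11.2 (7.81 to 18.2). The lower gene was Pdlim5, a PDZ and LIM protein of the Z disc, with 1461 and 394 reads, a ratio of 0.440 and 0.690 after adjustment. Of these 62 bodies, 34 held no myoblast peak and 5 no myotube peak. Peaks were wider in myotubes for genes at large, at 71.4 Mb against 48.1 Mb in myoblasts. The median share of a body in peaks over all genes compared was 7.12% in myotubes and 3.46% in myoblasts.

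The 7 myosin heavy chain genes of the list, grouped after their values were seen, were all higher. They ran from 0.119 to 0.918 RPKM in myoblasts and from 0.687 to 5.23 RPKM in myotubes. In myotubes Myh7b, Myh3 and Myh7 were at the top and Myh2 and Myh4 near the bottom. Myh8, used above as a marker of myotubes, was at 0.891 RPKM in myotubes, below Myh2 at 0.911 RPKM. Myh1, an adult fast chain as Myh2 and Myh4 are, was at 1.665 RPKM in myotubes. Of the Myh2 body, 60.6% is shared with another gene. Where only uniquely aligned reads are kept, as stated for the myoblast library, stretches shared by neighbouring myosin genes count low. Several sarcomere genes that were not called, also picked after their values were seen, carried the mark in both cells. Des, the muscle intermediate filament desmin, was at 8.62 and 7.48 RPKM, a ratio of 0.868 (0.745 to 1.01). Flnc, the muscle filamin, was at 8.10 and 14.2 RPKM, and Tpm1, a tropomyosin, at 4.45 and 4.41 RPKM.

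**Figure D4:**
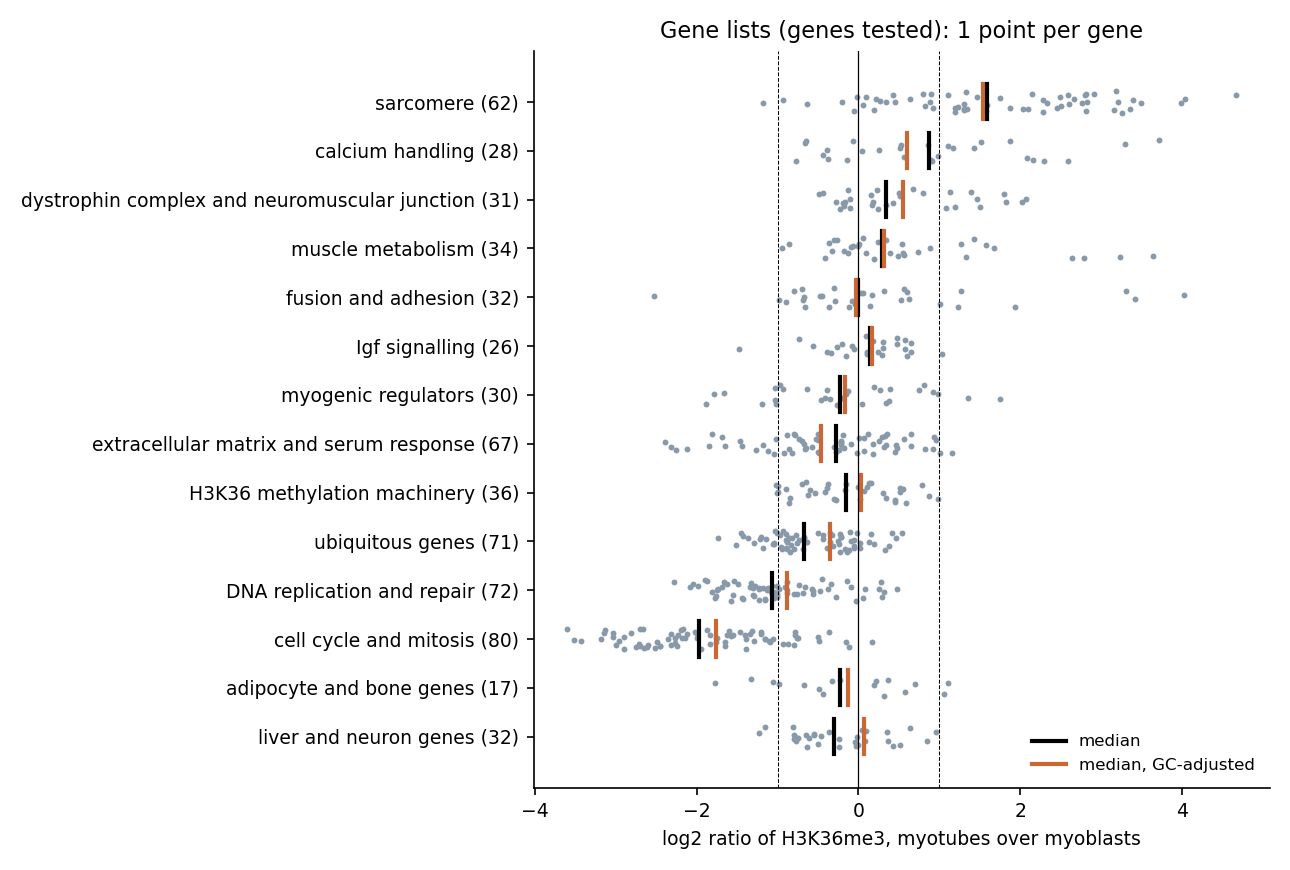
Log2 ratio of myotubes to myoblasts (x axis) for every compared member of the 14 gene lists (y axis, with the number of genes), 1 point per gene. Bars are the median of each list as measured and after adjustment for GC content, and dashed lines mark 2-fold. Sarcomere genes spread to the right of the upper line, cell cycle genes gather left of the lower one, and the other lists have members on both sides of 0.

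Calcium handling genes couple the electrical signal to contraction. Of 28 compared, 11 were higher (39.3%) and 0 lower, against 6.76% and 6.14% of all genes. After adjustment 12 were higher (42.9%, against 4.74% of all genes). The median ratio was 1.84, or 1.52 after adjustment. Besides Cacna1s these were led by the calcium-binding proteins of the sarcoplasmic reticulum, Casq2 with 123 and 749 reads (ratio 9.84, 8.20 to 12.1) and Casq1 with 29 and 111 reads (6.03, 4.12 to 9.75), and by the kinase subunit gene Camk2b with 221 and 668 reads (4.91). Ryr1, the calcium release channel and a marker above, was marked in both, at 1.39 and 5.91 RPKM. At the other side Fkbp1a, a protein that binds this channel, was at 3.38 and 1.98 RPKM, a ratio of 0.588.

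Genes of fusion, adhesion and membrane repair were mixed. Of 32 compared, 7 were higher (21.9%) and 1 was lower (3.12%), against 6.76% and 6.14% of all genes. After adjustment 7 were higher (21.9%) and 2 lower (6.25%), against 4.74% and 4.6%. The median ratio was 0.999. Next to Cav3 and Dysf stood Trim72, a partner of dysferlin in membrane repair, with 28 and 177 reads and a ratio of 9.91. Tmem8c, which encodes the fusion protein myomaker, had 108 and 255 reads, levels of 1.46 and 5.61 RPKM and a ratio of 3.82 (3.06 to 4.87). Vcam1, an adhesion molecule, was the lower gene, with 269 and 28 reads and a ratio of 0.174 (0.111 to 0.251).

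Of 31 genes of the dystrophin complex and the neuromuscular junction, 10 were higher (32.3%) and 0 lower, against 6.76% and 6.14% of all genes. After adjustment 7 were higher (22.6%, against 4.74% of all genes). Colq, the collagen tail of acetylcholinesterase, had a ratio of 4.20, but 56.3% of its body overlaps another protein-coding gene. Dok7, which activates the junction's kinase MuSK, had 364 and 794 reads and a ratio of 3.55 (3.14 to 4.04), and Sgca, alpha-sarcoglycan, 62 and 134 reads and 3.48. Sspn, sarcospan, was lowest at 0.714. Of 34 genes of muscle metabolism, 9 were higher (26.5%) and 0 lower, against the same shares of all genes. After adjustment 9 were higher (26.5%) and 1 lower (2.94%), against 4.74% and 4.6% of all genes. Ckm, the muscle creatine kinase, had 13 and 108 reads and a ratio of 12.5 (7.60 to 26.3), with 31.0% of its body shared with another gene. Pygm, the muscle glycogen phosphorylase, had 89 and 344 reads and a ratio of 6.23, while Me1, malic enzyme, was at 0.518 (0.452 to 0.591).

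Regulators of the muscle lineage were called in both directions, and which was more frequent depended on the scaling. Of 43 listed, 30 were compared and 9 were shorter than 3 kb. Of the 30, 2 were higher (6.67%) and 7 lower (23.3%), against 6.76% and 6.14% of all genes. After adjustment 2 were higher (6.67%) and 5 lower (16.7%), against 4.74% and 4.6%. Scaled by windows outside genes and peaks, 6 were higher and 3 lower, against 1691 and 469 of all 13663 genes. Mef2c, a transcription factor of differentiating muscle, had 305 and 633 reads and a ratio of 3.38 (2.95 to 3.89), and 5.43 after adjustment, at a level of only 0.265 and 0.898 RPKM. Vgll2, a TEAD cofactor, had 93 and 16 reads and a ratio of 0.290. Hey1, a Notch target, had 44 and 8 reads and a ratio of 0.316 (0.121 to 0.637). Twist2, which blocks muscle differentiation, had 386 and 103 reads, levels of 1.18 and 0.513 RPKM and a ratio of 0.437. Tead4, an effector of Hippo signalling, was marked in both without passing 2-fold, at 1.89 and 3.31 RPKM. Myog, the myogenin gene, is 2.54 kb long and was not among the genes compared. It had 25 and 24 reads and a ratio of 1.54 (0.856 to 2.86), or 1.11 after adjustment.

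Genes of the cell cycle and mitosis were lower nearly throughout. All 80 listed genes were compared, 67 were lower (83.8%) and 0 higher, against 6.14% and 6.76% of all genes. After adjustment again 67 were lower, against 4.6% of all genes. Their median ratio was 0.255, or 0.295 after adjustment, and their median level went from 2.32 to 0.662 RPKM. They were marked in 78 cases in myoblasts and in 32 in myotubes, and 26 passed from marked to unmarked. Depdc1a, a mitotic regulator, had 172 and 8 reads and the lowest ratio, 0.0825 (0.0322 to 0.153), followed by Ccnb1, Top2a and Casc5. All 10 kinesin genes of the list, grouped after their values were seen, were lower.

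Some division genes kept the mark. Lmnb2, which encodes lamin B2 of the nuclear envelope, had the highest ratio of the list, 1.12 (0.986 to 1.27), at 5.06 and 5.67 RPKM. Ccnb2, the second mitotic B-type cyclin, had 304 and 172 reads and a ratio of 0.923 (0.761 to 1.12), an interval that does not overlap that of Ccnb1. E2f2, a transcription factor of the S phase, was at 3.57 and 2.77 RPKM. Ccnb2 and E2f2 were named after their values were seen.

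Replication and repair genes showed the same direction with smaller differences. Of 72 genes, all compared, 44 were lower (61.1%) and 0 higher, against 6.14% and 6.76% of all genes. After adjustment 29 were lower (40.3%, against 4.6% of all genes). Scaled by windows outside genes and peaks, 26 were lower, against 469 of all 13663 genes. The median ratio was 0.478, or 0.543 after adjustment, and the median level went from 1.97 to 0.956 RPKM, with 70 genes marked in myoblasts and 44 in myotubes. The lowest were 5730590G19Rik (0.205), the checkpoint adaptor Clspn with 630 and 91 reads (0.237, 0.187 to 0.294), the histone chaperone Asf1b (0.241) and Brca1, a gene of DNA break repair, with 795 and 123 reads (0.253, 0.207 to 0.305). The helicase genes Mcm6 and Mcm3 were at 0.449 and 0.675. Dna2, a nuclease and helicase, had the highest ratio, 1.39, at 2.41 and 3.35 RPKM.

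Of 67 compared genes of the extracellular matrix and serum response, 15 were lower (22.4%) and 2 higher (2.99%). The shares of all genes were 6.14% and 6.76%. After adjustment 18 were lower (26.9%) and 1 higher (1.49%), against 4.6% and 4.74% of all genes. Scaling by windows outside genes and peaks gave 10 lower and 6 higher, against 469 and 1691 of all 13663 genes. Hmga2, a chromatin protein of growing cells, had 2681 and 313 reads, levels of 3.31 and 0.631 RPKM and a ratio of 0.191 (0.169 to 0.214). Col3a1, a fibrillar collagen, had 809 and 99 reads and a ratio of 0.201. Ereg, a ligand of the epidermal growth factor receptor, was at 0.209. Col6a2, a collagen of the basement membrane zone, was at 2.23 (1.62 to 3.13), and at 1.69 after adjustment.

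Genes of insulin-like growth factor signalling were chosen because the study's factor is known for repressing Igf2. Of 26 compared, 1 was higher and 1 lower (3.85% each), with or without adjustment. These counts were near the shares of all genes, 6.76% and 6.14%, or 4.74% and 4.6% after adjustment. The median ratio was 1.11. Irs1, the insulin receptor substrate, had 1020 and 224 reads and a ratio of 0.359 (0.308 to 0.414), and Foxo1, a transcription factor downstream of insulin, 291 and 365 reads and 2.04 (1.75 to 2.39). Igf2 itself had 15 and 23 reads, under the minimum, and its interval of 1.25 to 5.15 spans from little difference to a large one.

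Genes used by nearly all cells were called only in the lower direction. Of 71 compared, 15 were lower (21.1%) and 0 higher, and 10 were lower after adjustment (14.1%), against 6.14% and 4.6% of all genes. Scaled by windows outside genes and peaks, 6 were lower, against 469 of all 13663 genes. The median ratio was 0.630, and 0.782 after adjustment, the median level went from 3.10 to 2.07 RPKM, and 71 were marked in myoblasts and 70 in myotubes. The lowest were Npm1, the nucleolar protein nucleophosmin, with 214 and 39 reads (0.301, 0.206 to 0.420), the nuclear export receptor Xpo1 (0.351), the translation factor Eif4g2 (0.365) and Hnrnpu, an RNA-binding protein (0.371). Ap2a1, a clathrin adaptor subunit, was highest at 1.45.

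The enzymes and readers of H3K36 methylation had 36 genes compared, of which 0 were higher and 2 lower (5.56%). The shares of all genes were 6.76% and 6.14%. After adjustment 1 was lower (2.78%, against 4.6% of all genes). Scaled by windows outside genes and peaks, 3 were higher and 0 lower, against 1691 and 469 of all 13663 genes. The median ratio was 0.897, or 1.02 after adjustment. The lower genes were Morf4l1, which reads the mark, at 0.493 (0.387 to 0.618) and Phf19, a Polycomb partner that also binds it, at 0.499 (0.384 to 0.636). Setd2 itself had 1133 and 533 reads, levels of 1.87 and 1.44 RPKM and a ratio of 0.767, or 1.07 after adjustment. Dnmt3a, a DNA methyltransferase drawn to the mark, had the highest ratio, 1.97 (1.79 to 2.18), and 1.46 after adjustment.

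Genes were also sorted by whether the mark appeared or disappeared. In all 178 genes (1.3%) went from unmarked in myoblasts to marked in myotubes, and 115 (0.842%) the other way. Both groups rest on the base chosen. At 3 times the genome mean they held 88 and 54 genes, and with the median of 10 kb windows as the base 45 and 16, of which 9 and 0 were among the 178 and the 115. After adjustment 162 of the 178 were still at least 2-fold higher and 98 of the 115 at least 2-fold lower. Of the 178, 30 (16.9%) were in 1 of the 6 muscle lists, 19 of them sarcomere genes. Another 148 were in no list, and 0 were cell cycle or replication genes. Of the 115, 29 (25.2%) were cell cycle or replication genes, 1 was in a muscle list and 83 were in no list. The lists hold a small part of the 13663 genes. The muscle lists had 62, 28, 30, 32, 31 and 34 genes compared, and the cell cycle and replication lists 80 and 72. With so few genes in these last lists, 0 among the 178 is near their share of all genes. The newly marked genes had a median GC content of 49.6% and the others 41.3%, while their median lengths, 27.1 and 26.3 kb, were alike.

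The other marks of the series were read at the same genes, in libraries that the calls did not use. H3K4me3 and H3K27ac, marks of active promoters, were counted in the 2 kb around the start as fold over the genome mean. At the 178 newly marked genes the median H3K4me3 went from 1.85-fold in myoblasts to 8.53-fold in myotubes, and the genes at 5-fold or more from 37 to 109. Their median H3K27ac went from 1.38-fold to 6.63-fold. At the 115 genes that lost H3K36me3, H3K4me3 went from 29.98-fold to 14.4-fold and 104 genes were at 5-fold or more in myoblasts and 89 in myotubes. Their H3K27ac went from 21.3-fold to 4.60-fold, and the genes at 5-fold or more from 103 to 53. Over all 13656 genes the medians were 24.4 and 20.6 for H3K4me3 and 16.5 and 8.66 for H3K27ac, so both marks were lower in the myotube libraries for genes at large. The shares of these genes at 5-fold or more were 73.6% and 73.2% for H3K4me3. For H3K27ac they were 70.0% and 62.4%. The called genes as a whole moved less than the 178 and the 115. Their H3K4me3 changed by a median factor of 1.19 at 922 higher and 0.663 at 839 lower genes. This factor was 2.71 at the 178, 0.507 at the 115 and 0.878 at all genes. For H3K27ac it was 1.19 at higher, 0.418 at lower and 0.628 at all genes. H3K4me2 around the start hardly separated the calls, at 0.617, 0.650 and 0.630.

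At sarcomere and cell cycle genes both marks moved in the direction of H3K36me3. Genes used by nearly all cells, of which 15 of 71 were lower in H3K36me3, followed only in part. Their median ratio was 0.949 for H3K4me3, against 0.878 for all genes, and 0.538 for H3K27ac, against 0.628. At sarcomere genes median H3K4me3 went from 2.77-fold to 35.5-fold and H3K27ac from 4.47-fold to 49.4-fold, and 55 of 62 genes reached 5-fold H3K4me3 in myotubes against 23 in myoblasts. At cell cycle genes H3K4me3 went from 38.3-fold to 19.2-fold but was still at 5-fold or more at 75 of 80 genes, and H3K27ac went from 28.2-fold to 5.28-fold, with 41 genes at 5-fold or more against 79. All 72 replication genes were at 5-fold H3K4me3 or more in both cells. Of all 13656 genes, 73.6% were in myoblasts and 73.2% in myotubes, and for H3K27ac 70.0% and 62.4%. In single genes the H3K4me3 reads around the start, not scaled, went from 6 to 106 at Myh3, from 0 to 82 at Cav3 and from 80 to 38 at Top2a. Differences were smaller at other genes of these ends. Reads went from 2 to 4 at Cd300a, from 2 to 10 at Scn4a, from 47 to 43 at Bub1 and from 124 to 106 at Kif15. These examples were picked without a rule. Across the 13656 genes, which are not independent replicates and share their libraries, Spearman's rho of the H3K36me3 log2 ratio with that of H3K4me3 was 0.217 and with that of H3K27ac 0.222, and 0.287 and 0.267 after adjustment. For H3K4me2 around the start it was −0.0983, for H3K4me1 over the body −0.146 and for H3K27me3, the Polycomb mark, over the body 0.122, and after adjustment these were 0.0502, 0.224 and −0.00334.

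Along the gene the mark grew toward the 3′ end. In genes of 10 kb or longer that were marked in both libraries, 5927 in number, the downstream side of the body held 1.51 times the reads of the upstream side in myoblasts and 1.80 times in myotubes. In the 164 newly marked genes this ratio was 1.08 in myoblasts and 1.57 in myotubes. In the 93 genes that lost the mark it was 1.37 and 1.44, and in the 2645 genes unmarked in both 1.09 and 1.15.

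Long genes showed how unevenly a body can be covered. Myh9, the non-muscle myosin heavy chain, was marked in both cells, with 5566 and 3693 reads and 9.71 and 10.5 RPKM. Its ratio was 1.08 (1.04 to 1.13), or 0.793 after adjustment. Its downstream side held 2.05 and 2.88 times the reads of the upstream side. In myotubes the first of 10 equal parts was at 2.70 RPKM and the last at 16.2 RPKM. Ttn, titin, had 5078 and 5765 reads and was already at 2.59 RPKM in myoblasts and at 4.80 in myotubes, a ratio of 1.85 (1.78 to 1.92) that passed 2-fold after adjustment, at 2.39. Neb, nebulin, went from 577 to 2501 reads, from 0.406 to 2.87 RPKM, a ratio of 7.06 (6.45 to 7.75), and its 10 equal parts ran from 1.70 to 3.58 RPKM in myotubes without a steady slope. Dmd, dystrophin, spread over 2257272 bases of the X chromosome, was at 0.0621 and 0.0576 RPKM, with 985 and 560 reads. Windows outside genes and peaks at its GC content, 36% to 38%, were at 0.0868 and 0.0535 RPKM. Dmd was at a ratio of 0.927 as measured and of 1.56 after adjustment.

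**Figure D5:**
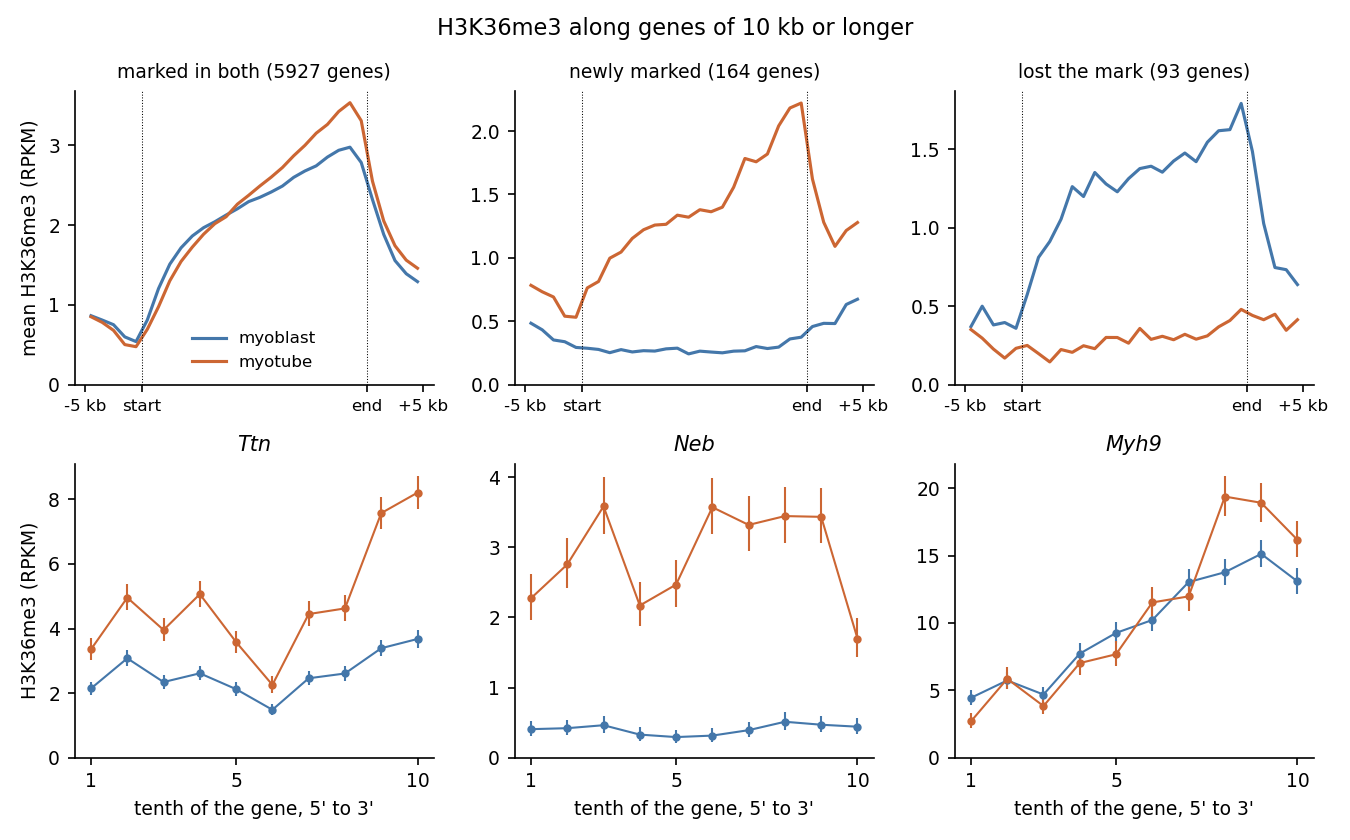
H3K36me3 level in RPKM (y axis) along genes from the 5′ to the 3′ end (x axis) in myoblasts and myotubes. The upper panels give the mean of 5927, 164 and 93 genes of 10 kb or longer with 5 kb on either side, and the lower panels give Ttn, Neb and Myh9 in 10 equal parts with exact 95% Poisson intervals. The mark grows toward the 3′ end in marked genes, and Neb is low throughout in myoblasts.

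The study drew attention to 9 muscle genes, which were read here whatever their values. Casq2, Tnnt3, Myom1, Actc1 and Myoz2 were at least 2-fold higher. Casq2 was given above, Myom1, a myomesin of the M band, had 264 and 1131 reads and a ratio of 6.96 (6.10 to 8.02), and Tnnt3, fast troponin T, 72 and 317 reads and 7.08 (5.54 to 9.41), with 46.2% of its body shared with another gene. Actc1, cardiac alpha-actin, had 14 and 52 reads and a ratio of 5.65 (3.31 to 11.8), and Myoz2, a calcineurin-binding Z disc protein, 55 and 173 reads and 5.04. Tmod1, which caps thin filaments, was at 1.89 (1.70 to 2.09), and Tpm2, a tropomyosin, at 5.00 and 6.00 RPKM, a ratio of 1.20. Homer1, a scaffold protein, was at 0.772 and 0.465 RPKM, a ratio of 0.604 (0.511 to 0.710), or 0.957 after adjustment. Tnni2, fast troponin I, is 2.60 kb long and was not among the genes compared, with 6 and 39 reads and a ratio of 8.96 (4.46 to 30.6).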

How the data were processed

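The authors deposited, per library, 34-bp reads aligned to the mm9 build (with Mosaik, keeping unique alignments, as stated for the myoblast libraries) and MACS peaks with a score column, of which only the positions were used here. Reads were extended to 150 bp and the count of fragment midpoints in each gene body of GENCODE M1 (mm9) was taken, so the counts are made here from the deposited reads. How runs were merged and whether duplicates were removed is not given in the sources used here, and no input library was used here. Reads at an already used position and strand made up 0.811% (myoblast) and 1.36% (myotube) of the reads. Libraries were scaled by total reads on chromosomes 1 to 19 and X. Ratios had 1 read added per library in proportion to depth, and intervals were exact conditional binomial (Clopper-Pearson). With 1 library per group no p-value was computed.

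Of the 14 gene lists, all members were counted and up to 4 with the most extreme ratio in the main direction, and the most extreme in the other, were named. The genes named at each end were the 15 with the highest lower bound and the 15 with the lowest upper bound of the interval among genes with at least 100 reads, a level of 2 times the genome mean in the higher library and under 10% of the body shared with another protein-coding gene. Ttn, Neb, Dmd, Myh9, Myog, Mef2c, Igf2, Twist2, the cell markers and 9 genes named by the study were added whatever their values. A few genes that this rule selects are not reported here. Members and lists were chosen with earlier results of these data known. Alternatives covered the read minimum, scaling, added reads, repeated positions, read extension, part of the body, shared bases, thinning, background subtraction and thresholds, and 2 GC adjustments were added after the data were seen. The steps were tested on simulated data. Values were computed in Python 3.11.15 with scipy 1.17.1, pandas 2.3.3 and numpy 2.4.6, and drawn with matplotlib 3.10.9.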

Additional observations from a re-analysis of the deposited data

Results flagged for a closer look

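Genes shorter than 3 kb were left out of the comparison, and 269 of them had at least 50 reads in both libraries together, more than the floor of 3 reads. Of these 21 were at least 2-fold higher in myotubes and 28 at least 2-fold lower. Among the 13663 genes compared the counts were 923 (6.76%) and 839 (6.14%). Among the list members this short, named here after their values were seen, Acta1, skeletal alpha-actin, had 21 reads in myoblasts and 112 in myotubes, a ratio of 8.27 (5.42 to 14.6), but its whole body is shared with another annotated gene. Tnnc2, fast troponin C, had 18 and 82 reads and a ratio of 7.01 (4.42 to 13.1), with 59.2% of its body shared. Myod1, the myogenic determination factor, had 51 and 31 reads and a ratio of 0.991 (0.613 to 1.58). Id3, an inhibitor of helix-loop-helix factors, had 73 and 0 reads, at least 14.9-fold lower against a floor of 3 reads in the myotube library, while the upper bound of its interval was a ratio of 0.0845. Id1, of the same family, had 38 and 3 reads and a ratio of 0.156 (0.0254 to 0.406).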

How the results depend on the processing

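No paired analysis was possible because there was 1 library per mark and cell type. Against 923 higher and 839 lower genes, the counts were 538 and 519 with at least 200 reads, 1396 and 1425 with no minimum, 1691 and 469 when scaled by windows outside genes and peaks, 1870 and 1276 with background subtracted, 2397 and 2389 at 1.5-fold, and 309 and 242 at 3-fold. Adjusting for GC content by 20 bins of genes gave 612 higher genes. Against 178 newly marked and 115 lost genes, 88 and 54 were found at 3 times the genome mean, and 45 and 16 with the median of 10 kb windows as the base, of which 9 and 0 were shared. The median log2 ratio over genes tested, 0.017, became 0.0197 with at least 20 reads, −0.00362 with at least 200, 0 with no minimum or scaled to the median, 0.28 scaled by windows, −0.0563 scaled by genes marked in both, 0.0779 in the downstream part of the body, 0.0134 without shared bases, 0.0235 with thinned reads, 0.0778 with background subtracted and 0.0421 adjusted for GC content by windows. Fewer or more genes passed where the minimum or threshold itself moved, and for the other settings the cause was not tested. The 30 genes at both ends stayed at 2-fold or more in all 446 values. They were picked as the most extreme of these same ratios, and some settings change only the minimum of reads. This result could therefore hardly differ and is no test of these genes. Many of the 55 named genes were picked in the same way, and no called one changed sign. Of 210 list medians 13 changed sign, in myogenic regulators, fusion and adhesion, H3K36 machinery, liver and neuron genes, and adipocyte and bone genes. The depth of 4309078 myotube reads limits short and weakly marked genes most.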

Other observations

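Genes of the adipocyte and bone fates, which myoblasts can also take, had 17 members compared. Of these 2 were higher (11.8%) and 3 lower (17.6%), against 6.76% and 6.14% of all genes. After adjustment for GC content 1 was higher (5.88%) and 2 lower (11.8%), against 4.74% and 4.6% of all genes. Spp1, osteopontin, had 98 reads in myoblasts and 17 in myotubes and a ratio of 0.292 (0.158 to 0.476). Lpl, lipoprotein lipase, had 96 and 23 reads and a ratio of 0.399, and Ebf1, a transcription factor of fat cells, 1260 and 370 reads and 0.479, or 0.591 after adjustment. Alpl, the alkaline phosphatase of bone, had 71 and 95 reads and a ratio of 2.16 (1.59 to 3.01), or 1.60 after adjustment. Cd36, a fatty acid transporter, was at 2.08, and at 3.39 after adjustment, but at only 0.142 and 0.296 RPKM, below the genome mean in both libraries.

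The 396 compared genes of the X chromosome had the lowest median log2 ratio of the chromosomes, −0.44, with 7 higher and 50 lower. After adjustment for GC content their median was −0.04. Their median GC content, 40.8%, was also the lowest of the chromosomes. The X chromosome held 0.758% of the higher and 5.96% of the lower genes, against 2.90% of all genes compared. Calls after adjustment were not counted by chromosome.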
